A study of Homo sapiens with 6 samples.

Results

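The integrated stress response was followed here through 10 genes: ATF4, ATF3, DDIT3 and CEBPB, which encode its transcription factors, PPP1R15A and TRIB3, which encode its feedback inhibitors, and DDIT4, CHAC1, GDF15 and STC2, which are among its transcriptional outputs. The genes were chosen by name, with earlier results of these data known. Every probe set annotated to exactly 1 of these symbols was used, which gave 25 probe sets among the 49293 tested, or 10 of 18132 genes. Transcripts of A549, an established human lung adenocarcinoma line, were measured on 3 arrays after silencing of the long noncoding RNA LINC00525 and on 3 arrays after a scrambled control. The titles name these groups sh_LINC00525 and sh_ctrl, whereas the treatment text describes small interfering RNA. They are called knockdown and control arrays here. For knockdown replicates 2 and 3 the genotype field reads LINC00526 and LINC00527, and the groups follow the titles. All samples come from 1 cell line. Neither the silencing sequence, nor the time after transfection, nor whether replicates were separate cultures is given in the sources used here, so a p-value covers the variation among these 6 samples alone, possibly only technical variation.

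In this pathway the kinases HRI, PKR, PERK and GCN2 phosphorylate the translation initiation factor eIF2 when haem, double-stranded RNA, unfolded endoplasmic reticulum protein or uncharged tRNA is sensed. Most protein synthesis then falls, while the ATF4 messenger is translated more, so ATF4 activity is set largely by translation and not by the level of its mRNA. ATF4 pairs with C/EBP proteins and induces DDIT3 (the factor CHOP), ATF3, TRIB3 and genes of amino acid supply, and PPP1R15A (GADD34) returns eIF2 to its unphosphorylated state. Arrays of RNA read only the transcript side of this circuit.

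LINC00525 had signals of 3.67, 3.45 and 3.54 on the knockdown arrays and 3.86, 3.74 and 3.97 on the control arrays, on the log2 scale used throughout, a difference of -0.30 ± 0.075 (SE, n = 3 each, limma adjusted p = 0.0372). It did not pass without knockdown replicate 2 or 3 or control replicate 1 or 3. LINC00526, named in the genotype field of knockdown replicate 2, read 4.28, 4.25 and 4.09 on the knockdown arrays. On the control arrays LINC00526 read 4.03, 3.96 and 4.13, and it did not pass (log2 0.17, limma adjusted p = 0.149). CDKN1A, which encodes the cell cycle inhibitor p21 of the study's title, differed by 0.55 ± 0.055 (limma adjusted p = 0.000891). The LINC00525 signal lay near background. Tag controls, 17 probe sets designed against no human gene, gave 2.27 to 4.60 on the control arrays, and 1 of them exceeded LINC00525 and LINC00526. Correlations between arrays were 0.9983 to 0.9988 within a group, and 0.9960 to 0.9963 for a knockdown array with a control array. Differences between 3′ and 5′ probe sets, a sign of RNA quality, were 0.41 to 0.46 on knockdown and 0.38 to 0.45 on control arrays for actin, and -0.16 to -0.15 on knockdown and -0.14 to -0.11 on control arrays for GAPDH. Epithelial keratins were bright (KRT18 at 12.42 on knockdown and 12.45 on control arrays). Of the 6 epithelial markers KRT19 rose by 0.29 and KRT8 fell by 0.15, and their summed signals were 53.98 to 54.5 on knockdown and 54.4 to 54.5 on control arrays. The leukocyte genes PTPRC and LYZ were at 2.44 and 2.29 on knockdown and at 2.32 and 2.42 on control arrays, within the Tag range. The other leukocyte markers were brighter. On control arrays CD68 was at 6.43, CD14 at 6.25, CD79A at 5.59, CD3E at 4.64 and NKG7 at 4.54. All of these but NKG7 lay above every Tag control. Of 7 leukocyte markers 1 rose (CD68), and their summed signals were 32.46 to 32.73 on knockdown and 31.94 to 32.45 on control arrays. Of 8 fibroblast and endothelial markers 0 rose and 0 fell (limma adjusted p under 0.05), with 1 (PECAM1) at an unadjusted p under 0.05, and their sums were 30.8 to 31.6 on knockdown and 31.05 to 31.8 on control arrays. The part of CD68 and the keratins in the results below was not tested.

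Upstream sequence was read from RefSeq (GRCh38.p14) for all 10 genes, as 16 windows of 250 bases before to 50 bases after an annotated start. Both strands were searched. The C/EBP-ATF response element TGATGNAA, the site that ATF4 and CHOP bind with C/EBP partners, was in windows of 2 of the 10 genes (ATF3 and CHAC1), against 4.46% of 27305 genes. The cyclic AMP response element TGACGTCA, which ATF and CREB proteins bind, was in 1 (PPP1R15A), against 2.25% of genes. CCAAT was in 7, against 39.7%, and TATAAA in 5, against 14.0%. A gene was counted if any of its windows held the motif. The 10 genes had more windows per gene (16) than all genes did (35116 windows for 27305 genes). For ATF3 the TATAAA lay only at -230 of another window. The interferon-stimulated response element GAAANNGAAA and the ER stress response element (CCAAT and CCACG with a fixed spacer) were in 0, against 4.38% and 0.0916%, which says only that these letters are not in these windows. The 4 stretches of 90 bases below are shown because they set 2 genes with the C/EBP-ATF element, 1 that rose (ATF3) and 1 that did not pass (CHAC1), beside PPP1R15A and DDIT3, which rose without it in these windows. They run 5′ to 3′ on the strand of the gene, upstream of its start, with the motifs above in capitals. PPP1R15A lies at chr19:48872331-48872420, plus strand, with the cyclic AMP element followed by TATAAA. CHAC1 lies at chr15:40953221-40953310, plus strand, with the C/EBP-ATF element read from the opposite strand and a CCAAT. ATF3 lies at chr1:212565202-212565291, plus strand, with the C/EBP-ATF element, and DDIT3 at chr12:57520555-57520644, minus strand, with CCAAT on each strand.
PPP1R15A: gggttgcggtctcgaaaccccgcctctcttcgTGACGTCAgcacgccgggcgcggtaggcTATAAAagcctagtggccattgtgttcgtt
CHAC1: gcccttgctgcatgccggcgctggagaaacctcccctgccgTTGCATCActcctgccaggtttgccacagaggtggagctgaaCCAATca
ATF3: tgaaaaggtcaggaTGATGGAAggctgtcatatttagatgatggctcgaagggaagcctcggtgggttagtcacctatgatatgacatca
DDIT3: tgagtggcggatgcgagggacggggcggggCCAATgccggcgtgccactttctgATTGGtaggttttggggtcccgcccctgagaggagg

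Of the 25 probe sets 19 rose, 0 fell and 6 did not pass (limma, adjusted p under 0.05 over 49293 probe sets), whereas 4.59% of all probe sets rose. With 1 probe set per gene, 8 of the 10 genes rose and ATF4 and CHAC1 did not pass, against 5.77% of all 18132 genes that rose. Every knockdown array was above every control array at 20 of the 25 probe sets, against 11.8% of all probe sets. The median difference was 0.52 over the 25 probe sets and -0.01 over all probe sets. Because the genes were chosen with earlier results of these data known, this excess is not an independent result. With 3 arrays against 3, the exact permutation test on a single probe set cannot go below p = 0.1, the value it gave (2-sided) at these 20. In bulk RNA, a higher level per cell and a larger share of cells with the transcript cannot be told apart.

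**Figure D1:**
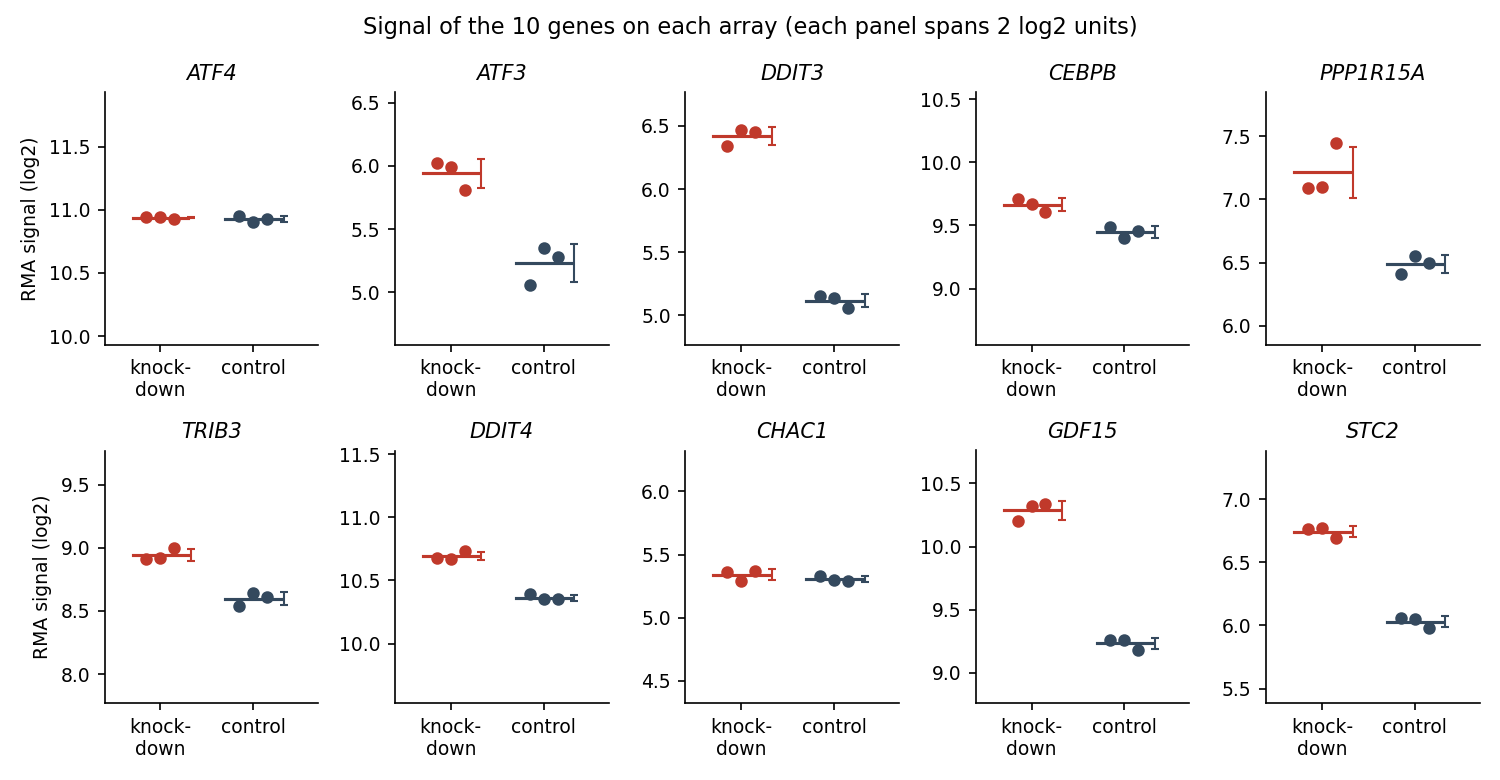
RMA signal (log2) of the probe set that stands for each of the 10 genes, with 3 knockdown arrays (red) left of 3 control arrays (dark), the group mean as a line and the SD as a bar. The groups do not overlap for 8 genes and overlap for ATF4 and CHAC1.

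Among the transcription factors, DDIT3 and ATF3 rose, CEBPB rose slightly and ATF4 mRNA did not pass the test. ATF4, the factor at the centre of the response, had signals of 10.94, 10.94 and 10.93 on the knockdown arrays, against 10.95, 10.90 and 10.93 on the control arrays. The groups overlapped, and the difference was 0.01 with a 95% confidence interval of -0.08 to 0.10 (limma adjusted p = 0.912). Its probe set carries the suffix _x_at, which marks probes that can also bind similar transcripts.

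DDIT3 encodes CHOP, a C/EBP family member that ATF4 induces and that promotes cell death when stress persists. At its brighter probe set the signals were 6.34, 6.47 and 6.45 on the knockdown arrays, against 5.15, 5.14 and 5.06 on the control arrays. The second gave 6.01, 6.16 and 6.09 on knockdown arrays, against 4.71, 4.70 and 4.63 on control arrays. The groups were far apart at both, with rises of 2.47-fold (log2 1.30 ± 0.052 SE, limma adjusted p = 7.23e-06) and 2.65-fold (log2 1.41 ± 0.052, limma adjusted p = 5.07e-06). Both probe sets carry the suffix _s_at, which marks probes shared between transcripts of more than 1 gene. Among the 18132 genes, DDIT3 had the 30th largest rise.

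ATF3, a repressor and activator of the same bZIP class that ATF4 and CHOP induce, was read by 7 probe sets that did not give 1 answer. The largest rise was 3.15-fold (log2 1.66 ± 0.069 SE, limma adjusted p = 8.79e-06), from signals of 6.13, 6.24 and 6.32 on knockdown arrays and 4.57, 4.68 and 4.47 on control arrays, where 1 of the 17 Tag probe sets was above it. Another probe set read 5.88, 6.0 and 6.09 on knockdown arrays and 4.94, 4.75 and 4.93 on control arrays, a rise of 2.17-fold. The probe set with the highest mean, which stood for the gene, read 6.02, 5.99 and 5.81 on knockdown arrays and 5.06, 5.35 and 5.28 on control arrays. The groups did not overlap at any of these, but at the last the rise was smaller, 1.64-fold (log2 0.71 ± 0.086 SE, limma adjusted p = 0.00236). A further probe set rose by 0.82, with control signals of 3.54, 3.52 and 3.44 inside the Tag range. The remaining 3 did not pass (log2 0.04, 0.03 and 0.20, adjusted p of 0.0882 to 0.872), and their control means of 3.59, 2.69 and 2.50 had 2, 9 and 12 of the 17 Tag probe sets above them.

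CEBPB, the C/EBP protein that shares composite sites with ATF4, rose little at its single probe set, which carries the suffix _s_at. Its signals were 9.71, 9.67 and 9.61 on the knockdown arrays, against 9.49, 9.40 and 9.46 on the control arrays, a 1.16-fold rise (log2 0.21 ± 0.047 SE, limma adjusted p = 0.0287). The groups did not overlap. In the fit with 1 probe set per gene, CEBPB did not pass without knockdown replicate 1, knockdown replicate 2, control replicate 2 or control replicate 3 (limma adjusted p of 0.0607 to 0.0770).

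Both feedback genes rose. PPP1R15A, the regulatory subunit that directs protein phosphatase 1 to eIF2, had signals of 7.09, 7.10 and 7.45 on the knockdown arrays, against 6.41, 6.55 and 6.50 on the control arrays. All knockdown arrays were higher, replicate 3 the most, and the rise was 1.65-fold (log2 0.73 ± 0.096 SE, limma adjusted p = 0.00355). Without that replicate it was 0.61, and without variance moderation PPP1R15A did not pass (adjusted p = 0.0539 from ordinary least squares in limma). Its single probe set carries the suffix _x_at. TRIB3, a pseudokinase that ATF4 and CHOP induce and that restrains them, read 8.91, 8.92 and 9.0 on the knockdown arrays, against 8.54, 8.64 and 8.61 on the control arrays. The groups were apart by a smaller step, 1.27-fold (log2 0.35 ± 0.048 SE, limma adjusted p = 0.00441). A second TRIB3 probe set rose 1.26-fold.

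The output genes divided. GDF15, a secreted stress cytokine induced by ATF4 and CHOP and also by p53, rose at all 5 of its probe sets. At the 3 bright ones, with control means of 8.93 to 9.23, the differences lay between 1.05 and 1.19. The brightest read 10.20, 10.32 and 10.34 on knockdown arrays, against 9.26, 9.26 and 9.18 on control arrays, a 2.08-fold rise (log2 1.05 ± 0.053 SE, limma adjusted p = 2.22e-05). The groups were clearly apart there. This probe set carries the suffix _x_at. The bright probe set without the suffix _x_at or _s_at rose by 1.12. At the 2 dimmer ones, with control means of 4.98 and 4.41, the differences were 0.41 and 0.85. The control mean of 4.41 lay inside the Tag range, with 1 Tag probe set above it.

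STC2, the secreted glycoprotein stanniocalcin 2, which PERK and ATF4 signalling induces, rose at each of its 3 probe sets. The brightest read 6.76, 6.77 and 6.69 on the knockdown arrays, against 6.06, 6.05 and 5.98 on the control arrays, a rise of 1.64-fold (log2 0.71 ± 0.046 SE, limma adjusted p = 8.69e-05). The groups did not overlap. The other probe sets rose by 0.50 and 0.52. DDIT4, which encodes REDD1, an inhibitor of mTORC1, read 10.68, 10.67 and 10.73 on the knockdown arrays, against 10.39, 10.35 and 10.35 on the control arrays. That is a 1.26-fold rise without overlap (log2 0.33 ± 0.042 SE, limma adjusted p = 0.00287).

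CHAC1, the glutathione-degrading enzyme that is induced through ATF4 and CHOP, did not pass at either of its 2 probe sets. Its brighter probe set read 5.36, 5.29 and 5.37 on the knockdown arrays, against 5.33, 5.30 and 5.29 on the control arrays. The groups overlapped, and the difference was 0.03 with a 95% confidence interval of -0.07 to 0.13 (limma adjusted p = 0.70). The second probe set, with a control mean of 4.03 inside the Tag range, gave 0.01, with an interval of -0.10 to 0.12. The plot of differences by probe set sets these intervals beside those of the other genes.

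**Figure D2:**
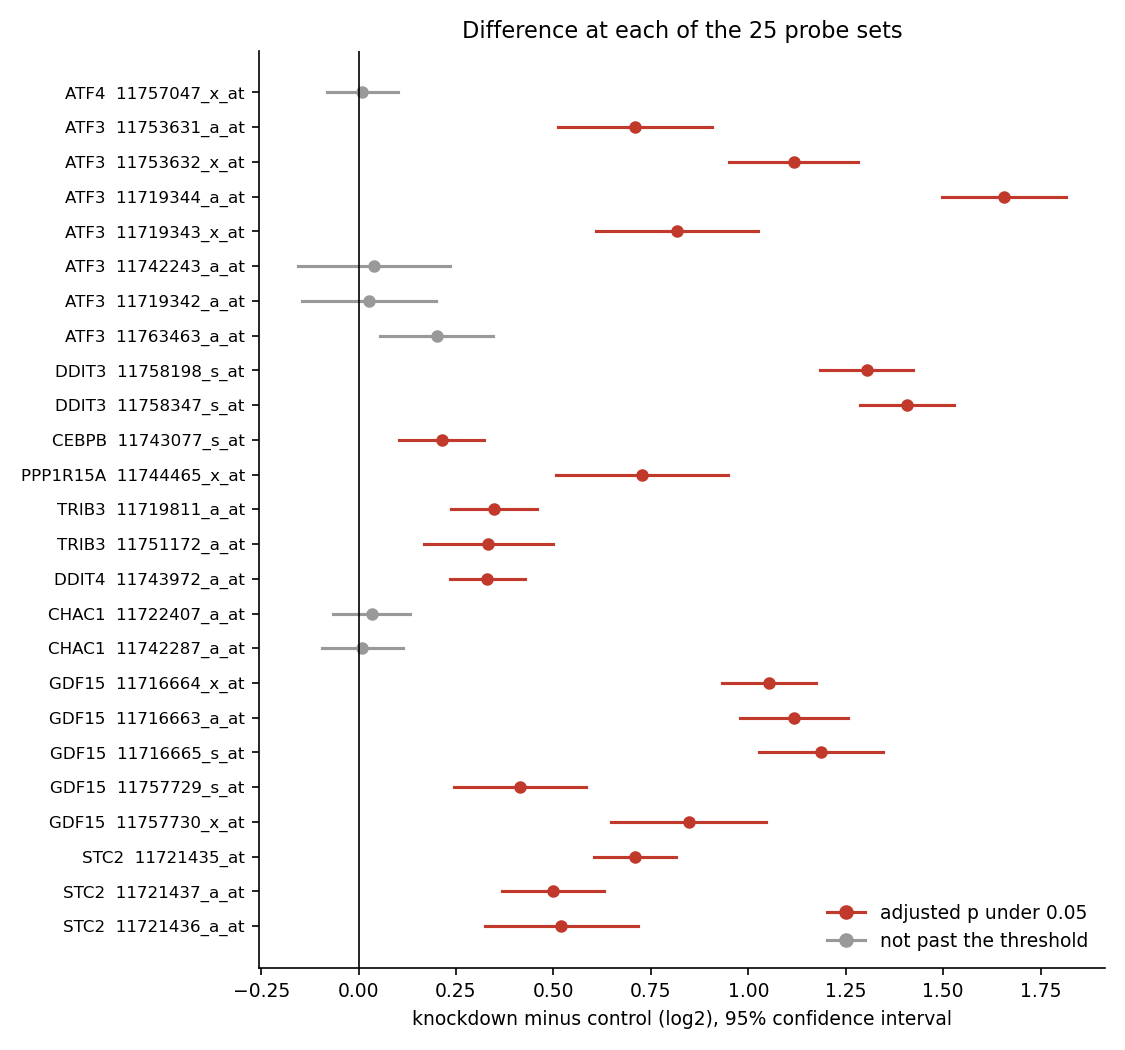
Difference between knockdown and control arrays (log2) at each of the 25 probe sets, with 95% confidence intervals from limma, red where the adjusted p was under 0.05. The 19 red intervals lie right of 0, and those of ATF4 and both CHAC1 probe sets span 0.

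**Figure D3:**
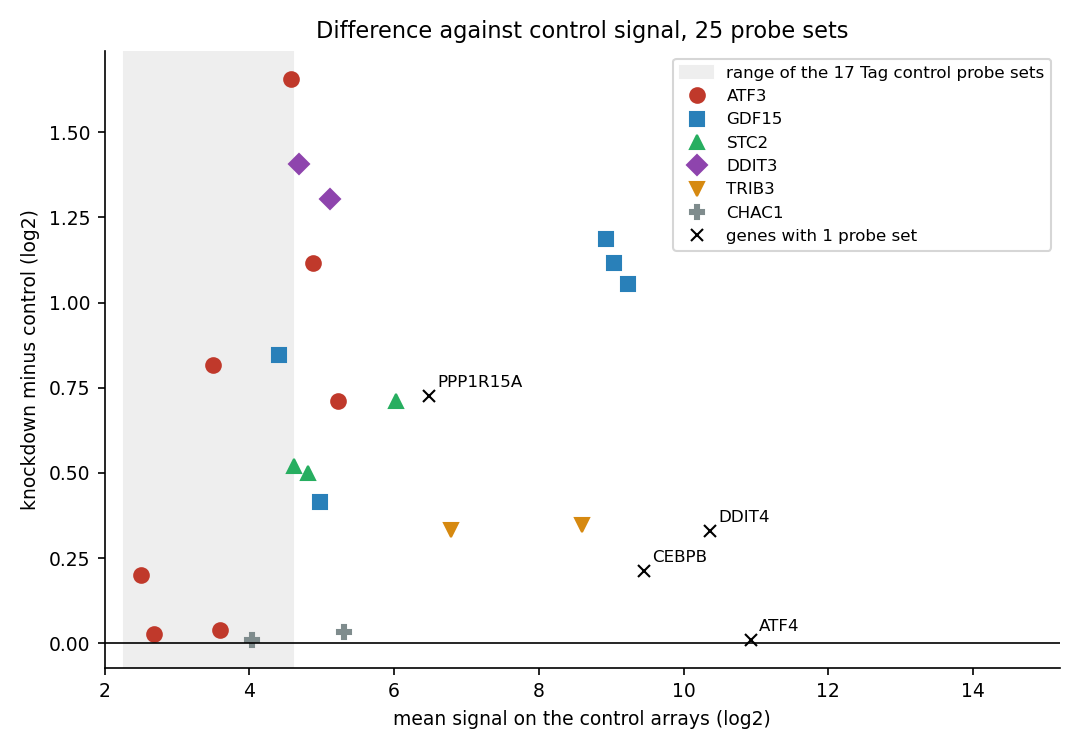
Difference (log2) against mean control signal (log2) for the 25 probe sets, with the range of the 17 Tag control probe sets shaded. The ATF3 probe sets with differences of 0.04, 0.03 and 0.20 sit inside the shaded range, while CHAC1 has 1 probe set outside it and ATF4 lies far above it.

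The kinases and their substrate were then examined in a list of 23 genes, all measured. Of these 1 rose, 3 fell and 19 did not pass, with a median of -0.04, while over all genes 5.77% rose and 6.83% fell and the median was -0.01. The gene that rose was EIF2AK2, the kinase PKR that binds double-stranded RNA and is itself induced by interferon. It read 8.87, 8.87 and 8.80 on the knockdown arrays, against 8.01, 8.05 and 8.07 on the control arrays. The groups were well apart, a 1.75-fold rise (log2 0.80 ± 0.040 SE, limma adjusted p = 2.81e-05). The other EIF2AK2 probe set gave 0.79. EIF2AK1, the haem-regulated kinase HRI, fell by 0.16 ± 0.037 (limma adjusted p = 0.0269). EIF2AK3, the endoplasmic reticulum kinase PERK, was at -0.18 without passing (limma adjusted p = 0.0609), and its other probe sets gave 0.28 and 0.04. EIF2AK4, the amino acid sensor GCN2, was at 0.02 (limma adjusted p = 0.75). The other genes that fell were OMA1, the mitochondrial protease upstream of HRI (log2 -0.30 ± 0.044), and EIF2B1, a subunit of the eIF2 exchange factor (log2 -0.23 ± 0.047). The 8 EIF2AK1 probe sets lay between -0.30 and -0.12. Leaving out 1 array left 1 or 2 falls in the list, 1 without knockdown replicate 2 or any control replicate.

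Relatives and partners of the factors moved both ways. Of 13 measured bZIP genes 3 rose, 2 fell and 8 did not pass, with a median of 0.08. The shares over all 18132 genes were 5.77% that rose and 6.83% that fell. JUN, an AP-1 subunit that pairs with ATF3, read 7.2, 7.53 and 7.35 on the knockdown arrays, against 6.0, 6.04 and 6.15 on the control arrays, and rose 2.46-fold (log2 1.30 ± 0.083 SE, limma adjusted p = 0.000106). All 4 JUN probe sets rose. XBP1, the factor of the IRE1 branch, rose by 0.18 and CEBPG, an ATF4 partner, by 0.18. ATF5, whose messenger is regulated by translation like that of ATF4, fell by 0.36 ± 0.040 (limma adjusted p = 0.00165), and CEBPA fell by 0.32 ± 0.047. The 3 dimmer ATF5 probe sets gave -0.26 to -0.20 without passing. Leaving out any 1 array left 1 rise and 2 falls in this list.

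The list of ATF4 targets of amino acid supply, which includes the lipoprotein receptor VLDLR, held as many rises as falls. CBS and GPT2 of the 25 listed genes had no probe set of their own among those used. Of the 23 measured 3 rose, 3 fell and 17 did not pass, with a median of 0.003. Among all genes 5.77% rose and 6.83% fell. The rises at the brightest probe sets were PCK2, mitochondrial phosphoenolpyruvate carboxykinase, at 0.23, the glutamine transporter SLC38A2 at 0.22 and the lipoprotein receptor VLDLR at 0.21, with limma adjusted p of 0.0369, 0.0468 and 0.0427. The 2 dimmer SLC38A2 probe sets rose by 0.40 and 0.41. In the fit over all probe sets, VLDLR and the brightest SLC38A2 probe set did not pass (limma adjusted p of 0.0533 and 0.0563). The falls were SLC1A4 (-0.37), SLC7A5 (-0.21) and SLC1A5 (-0.17), all amino acid transporters. The other SLC1A4 probe sets ranged from -0.52 to 0.05. Leaving out any 1 array left 0 or 1 rise and 1 or 2 falls in this list. Asparagine synthetase ASNS, a classical ATF4 target named here after its values were seen, was at 0.06 (limma adjusted p = 0.539).

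Stress and death genes linked to CHOP held 7 rises, 0 falls and 7 that did not pass among 14 measured, with a median of 0.12. Over all genes 5.77% rose and 6.83% fell, with a median of -0.01. The lists were chosen with earlier results of these data known. BBC3, the pro-apoptotic protein PUMA and also a p53 target, read 7.97, 7.82 and 8.0 on the knockdown arrays, against 7.09, 7.19 and 7.0 on the control arrays, and rose 1.79-fold (log2 0.84 ± 0.066 SE, limma adjusted p = 0.000298). NIBAN1 rose by 0.57 ± 0.075, KLHL24 by 0.51 ± 0.062 and PMAIP1, the pro-apoptotic protein NOXA, by 0.44 ± 0.046. A NIBAN1 probe set, at 0.10, did not pass. Genes of the IRE1 and ATF6 arms of the unfolded protein response held 10 rises and 0 falls among 17, with a median of 0.17, led by DNAJB9 (0.66 ± 0.057), HERPUD1 (0.40 ± 0.048), HYOU1 (0.36 ± 0.042) and HSPA5 (0.25 ± 0.038). Other HYOU1 probe sets ranged from 0.04 to 0.41, and the 5 other HSPA5 probe sets, which read the chaperone BiP, from 0.40 to 0.47. This list held 6 rises without knockdown replicate 2 and 5 without control replicate 2.

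**Figure D4:**
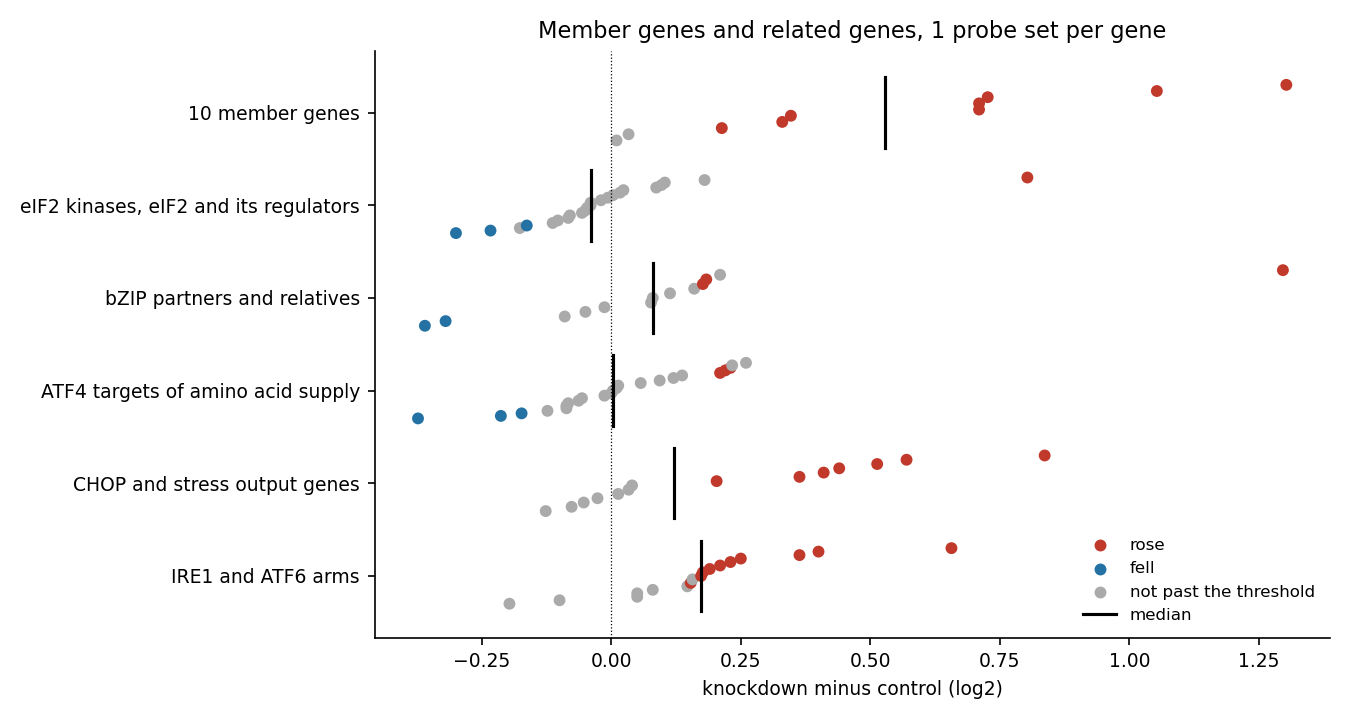
Difference between knockdown and control arrays (log2) for the 10 genes and for the measured genes of 5 related lists, 1 point per gene, coloured by whether it rose, fell or did not pass (limma adjusted p under 0.05), with the list median as a line. The median is 0.53 for the 10 genes, 0.003 for amino acid supply and 0.17 for the IRE1 and ATF6 arms.

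The genes whose 6 values lay nearest to those of DDIT3, after each gene was centred on its control mean, were CREBRF at a Euclidean distance of 0.10 log2 units, IL6 at 0.18, DUSP5 at 0.18, DDX60L at 0.18 and ISG20 at 0.18, over all 18132 genes. CREBRF, a bZIP protein that restrains the factor CREB3, read 5.85, 5.93 and 5.85 on the knockdown arrays, against 4.56, 4.60 and 4.56 on the control arrays. The 5 genes differed between groups by 1.24 to 1.34, beside 1.30 for DDIT3. With 2 tight groups this distance mostly picks genes with a like difference, and joint regulation was not tested.

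All these differences are relative to the typical gene of an array, because RMA brings the arrays to a common distribution. The 18 bacterial hybridization control probe sets were 0.28 higher on the knockdown arrays and the 27 poly-A controls 0.13 higher. Scaled to the hybridization controls, the median gene moved to -0.29, 5 of the 10 genes rose and 2 fell. Over all 18132 genes, 232 (1.28%) rose and 15085 fell under this scaling. DDIT3 was then at 1.02, GDF15 at 0.77, PPP1R15A at 0.45, ATF3 at 0.43 and STC2 at 0.43, all still past the threshold. In that fit the variance was in effect shared across genes. ATF3 and STC2, with equal differences, had the same limma adjusted p of 6.55e-05. Passing there follows the size of the difference and not the spread of the single gene. TRIB3 (0.07), DDIT4 (0.05) and CEBPB (-0.07) no longer passed, and ATF4 (-0.27) and CHAC1 (-0.25) passed as falls. Scaled to the poly-A controls, the median gene moved to -0.14, 7 genes rose, and CEBPB (0.09), ATF4 (-0.12) and CHAC1 (-0.09) did not pass. Over all genes, 522 (2.88%) rose and 7011 fell there. As deposited, 5.77% of all 18132 genes rose and 6.83% fell. In the 5 related lists together, 24 genes rose and 8 fell as deposited, against 6 that rose and 53 that fell when scaled to the hybridization controls. The amino acid list then had 0 rises and 15 falls among 23, and the IRE1 and ATF6 list 1 rise and 5 falls among 17. These falls stand beside the 15085 of 18132 genes that fell under that scaling.

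**Figure D5:**
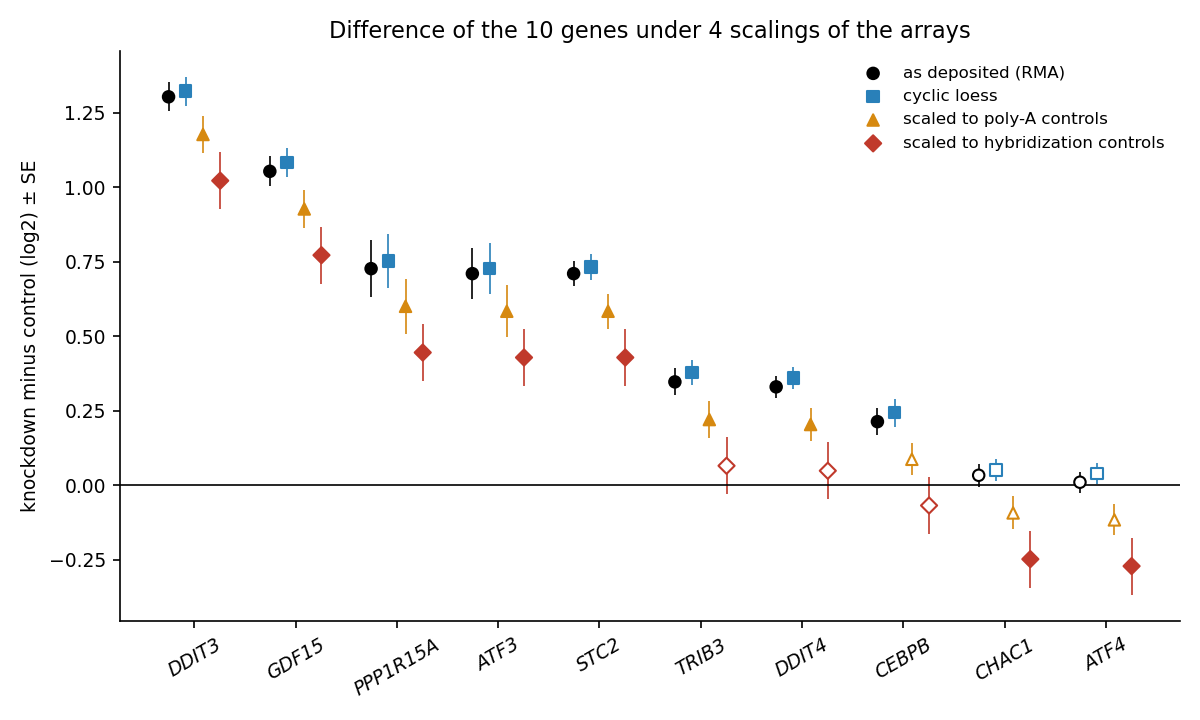
Difference between knockdown and control arrays (log2, ± SE) of the 10 genes under 4 scalings of the arrays, filled where the adjusted p was under 0.05. DDIT3, GDF15, PPP1R15A, ATF3 and STC2 stay filled and above 0 in all 4, while ATF4 and CHAC1 lie below 0 when scaled to either set of controls and CEBPB when scaled to the hybridization controls.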

How the data were processed

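RNA of 6 A549 samples was hybridised to 1-colour arrays. The deposited log2 values are those of RMA (background correction, quantile normalization and summary per probe set), per the submitters' processing notes, which name RMA; no version is stated. The arrays were not normalized again. Control probe sets (79) were left out of the tests, and array medians lay between 5.10 and 5.11. Of 49372 probe sets 44988 had 1 gene symbol, 1832 several and 2552 none.

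Knockdown minus control was tested with limma 3.58.1 in R 4.3.3 (lmFit, eBayes, 2-sided, Benjamini-Hochberg) over 49293 probe sets, and over 18132 genes, each read by its brightest probe set. Member values are from the first fit, and gene counts, related lists and alternatives from the second. A call is an adjusted p under 0.05. The fit was tested on simulated data. Figures used matplotlib 3.10.9. Precision is limited by the number of arrays.

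The members and lists were chosen with earlier results of these data known. Named are all members, LINC00525, LINC00526, CDKN1A, the 4 kinases, up to 4 rises and 4 falls per list and the 5 genes nearest to DDIT3. No scan date or other batch is stated in the sources used here. Alternatives were a replicate block, no variance moderation, cyclic loess, scaling to either control set, dim features left out, other probe set rules and each array left out. Deviations of same-numbered samples correlated at 0.0929, 0.0624 and -0.0072, under the limit set for a pairing, and the main fit has no block.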

Additional observations from a re-analysis of the deposited data

How the results depend on the processing

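Of 136 alternative values of the 10 genes, 121 kept their direction and side of the threshold, 9 no longer passed and 6 reversed. The reversed values were ATF4 at -0.27, CEBPB at -0.068 and CHAC1 at -0.25 when scaled to the hybridization controls, ATF4 at -0.116 and CHAC1 at -0.093 when scaled to the poly-A controls, and ATF4 at -0.0033 without control replicate 2 (with 1 array left out it ranged from -0.0033 to 0.022). The first scaling left 5 of 10 genes rising, called 59 related genes in place of 32, and moves every gene by construction. Under it 1.28% of all genes rose and 15085 of 18132 fell. Leaving out probe sets with the suffixes _s_at and _x_at left 6 of the 10 genes measured, of which 5 rose, against 5.28% of all genes measured there. Without variance moderation 6 genes and 13 probe sets rose, against 3.37% of all genes and 2.25% of all probe sets. CEBPB and PPP1R15A did not pass there (adjusted p of 0.0603 and 0.0539 from ordinary least squares in limma). LINC00525, at -0.30, did not pass either (adjusted p = 0.151 from the same fit). With 1 array left out, 17 to 18 probe sets and 7 to 8 genes rose, against 2.66% to 3.66% of all probe sets and 3.49% to 4.6% of all genes. In these fits 17 to 23 related genes were called and LINC00525 lay between -0.36 and -0.25. LINC00525 did not pass without knockdown replicate 2 or 3 or control replicate 1 or 3 (adjusted p of 0.0960 to 0.111), and fewer arrays were tested there. With the replicate block, 18 probe sets and 8 genes rose, against 3.61% of all probe sets and 4.51% of all genes, and 23 related genes were called. Every pair's correlation was under 0.1. Dim signal limits LINC00525 and single probe sets of ATF3 (5), GDF15 (1) and CHAC1 (1), whose control means had at least 1 Tag control above them.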
